A study of Mus musculus with 12 samples.

Results

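The 7 genes described here encode mouse osteocalcin (Bglap, Bglap2 and the related Bglap3), the other vitamin K-dependent Gla proteins Mgp and Gas6, and the enzymes Ggcx and Vkorc1 that serve their modification. They were taken by symbol from GENCODE M21 among 52654 genes with complete counts in 12 RNA sequencing libraries. The libraries came from MC3T3-E1 subclone 14, a clonal preosteoblast line from mouse calvaria, and 3 were made for each of 4 groups: co-culture on nanotopography, co-culture on control titanium, isolated cells on nanotopography and isolated cells on control titanium. Every group received ascorbic acid at 5 µg/mL together with β-glycerophosphate at 7 mM, and RNA was taken on day 7. In co-cultures, RAW 264.7 macrophages driven towards osteoclasts with 50 ng/mL RANKL shared the medium for the last 2 days from an insert with 0.4 µm pores, after 5 days apart. No isolated culture is described as having RANKL or an insert, so effects of the osteoclasts, RANKL and the insert cannot be told apart. The series calls the 3 libraries of a group biological triplicates, and nothing given here says how the nanotopography was made.

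Gla proteins are made as precursors in which chosen glutamate residues are converted to γ-carboxyglutamate, which binds calcium. The carboxylase Ggcx does this in the endoplasmic reticulum and oxidises reduced vitamin K to its epoxide, and the epoxide reductase Vkorc1 regenerates the cofactor. Osteocalcin is a late marker of osteoblasts and binds bone mineral, matrix Gla protein (Mgp) inhibits calcification of soft tissue and cartilage, and Gas6 is a ligand of the receptor kinases Tyro3, Axl and Mertk. The counts measure mRNA only and hold nothing on carboxylation itself.

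Mouse osteocalcin is encoded by neighbouring copies whose reads can be hard to place, and their coding sequences are shown because each osteocalcin value below rests on that placement. The 285 coding bases without the stop codon, from the GENCODE M21 transcripts of GRCm38 chromosome 3, minus strand, are given with capitals at positions unlike Bglap.

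Bglap: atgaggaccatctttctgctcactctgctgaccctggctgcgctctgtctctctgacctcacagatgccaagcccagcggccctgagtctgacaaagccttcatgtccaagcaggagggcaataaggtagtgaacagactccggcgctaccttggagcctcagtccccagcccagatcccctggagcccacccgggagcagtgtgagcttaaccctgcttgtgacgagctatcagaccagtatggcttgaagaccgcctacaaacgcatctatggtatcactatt

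Bglap2: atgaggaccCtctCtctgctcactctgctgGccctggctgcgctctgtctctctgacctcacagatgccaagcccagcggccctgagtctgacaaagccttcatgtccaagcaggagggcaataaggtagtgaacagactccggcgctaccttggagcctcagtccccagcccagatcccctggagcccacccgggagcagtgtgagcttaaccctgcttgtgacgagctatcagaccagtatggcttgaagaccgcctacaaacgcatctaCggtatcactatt

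Bglap3: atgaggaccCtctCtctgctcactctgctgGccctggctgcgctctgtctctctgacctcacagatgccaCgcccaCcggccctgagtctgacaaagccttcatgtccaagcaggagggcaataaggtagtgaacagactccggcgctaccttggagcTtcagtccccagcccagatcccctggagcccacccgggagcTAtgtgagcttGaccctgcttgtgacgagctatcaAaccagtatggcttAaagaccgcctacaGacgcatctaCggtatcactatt

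Bglap2 differed from Bglap at 4 of these positions (98.6% identity) and Bglap3 at 13 (95.4%). Of all 50-base stretches of its transcript, 25.3% in Bglap, 11.8% in Bglap2 and 76.0% in Bglap3 occurred in none of the other osteocalcin genes. At 100 bases the shares were 43.7%, 43.0% and 96.8%. The read length and the handling of reads with several matches are not given in the sources used here, so the split between Bglap and Bglap2 is uncertain and their summed reads are reported beside each.

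The genes lie on several chromosomes of GRCm38. Bglap (ENSMUSG00000074483.2, chr3:88383501-88384464), Bglap2 (ENSMUSG00000074486.2, chr3:88377736-88378699) and Bglap3 (ENSMUSG00000074489.9, chr3:88368616-88372743) are on the minus strand, as are Mgp (ENSMUSG00000030218.2, chr6:136872435-136875823), Gas6 (ENSMUSG00000031451.6, chr8:13465374-13494490) and Vkorc1 (ENSMUSG00000096145.2, chr7:127893063-127895617). Ggcx (ENSMUSG00000053460.8, chr6:72414308-72430712) is on the plus strand. Vkorc1 shares 401 of its 840 exonic bases (47.7%) with Gm21974 on the same strand, a gene listed at 0 counts in every library, and the counter's rule for shared bases is not given. Gas6 shares 34 of 2548 exonic bases (1.33%) with Tmem255b on the opposite strand.

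Total counts ran from 5866842 to 9207831 per library. Libraries on nanotopography shifted with GC content, in opposite directions in co-culture and in isolated cells: 55.4% of the variance lay on the first principal component, whose gene loadings followed GC content (Spearman's rho of 0.74 across genes, which are not independent replicates). On it the 3 libraries of co-culture on nanotopography lay at -74.1 to -44.5 and those of isolated cells there at 26.1 to 54.3, with the 6 on control titanium at -11.6 to 25.8. Mitochondrial rRNA took 8.66% to 15.8% of the counts in co-culture on nanotopography, against 4.52% to 9.8% in the others. For co-culture against isolated cells on nanotopography, the median log2 fold change was 0.70 for 3829 genes under 45% GC and -0.90 for 2669 genes over 55%, against -0.15 and 0.00 on control titanium. For nanotopography against control titanium the medians were 0.46 and -0.68 in co-culture and -0.36 and 0.25 in isolated cells. Each comparison was therefore also fitted with per-library trends over GC content and exonic length removed, and the results are called GC-adjusted. Where the unadjusted and GC-adjusted values part, a change of the gene and a shift of its library with GC content cannot be told apart. Osteoblast markers were counted in every group, all 9 of them. Among 17 macrophage and osteoclast markers, 16 had counts in co-cultures on nanotopography, 14 in those on control titanium and 10 in each isolated group; Ptprc, Itgam and Tyrobp were at 0 in isolated cells.

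Mgp was the most abundant member per exonic length in every group, with mean levels of 217 to 405 CPM per kb (CPM are read counts scaled to a common TMM-adjusted library total, here divided by exonic kilobases). Bglap followed at 56.5 to 102, Bglap2 at 64.4 to 96.8 and Gas6 at 37.1 to 58.5 CPM per kb. Ggcx lay at 21.5 to 32.7, Vkorc1 at 1.52 to 7.65 and Bglap3 at 0.09 to 0.277 CPM per kb. On this scale Bglap and Bglap2 differed by less than the sum of their SDs in each group, so it does not resolve their order. Every other pair of neighbours in this order differed by more than that sum. The lengths join all annotated exons, at 618 bases for Bglap, 471 for Bglap2 and 2629 for Bglap3. The transcripts compared above have 440, 471 and 717 bases, so the order of Bglap and Bglap2 and the Bglap3 level depend on the length chosen.

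**Figure D1:**
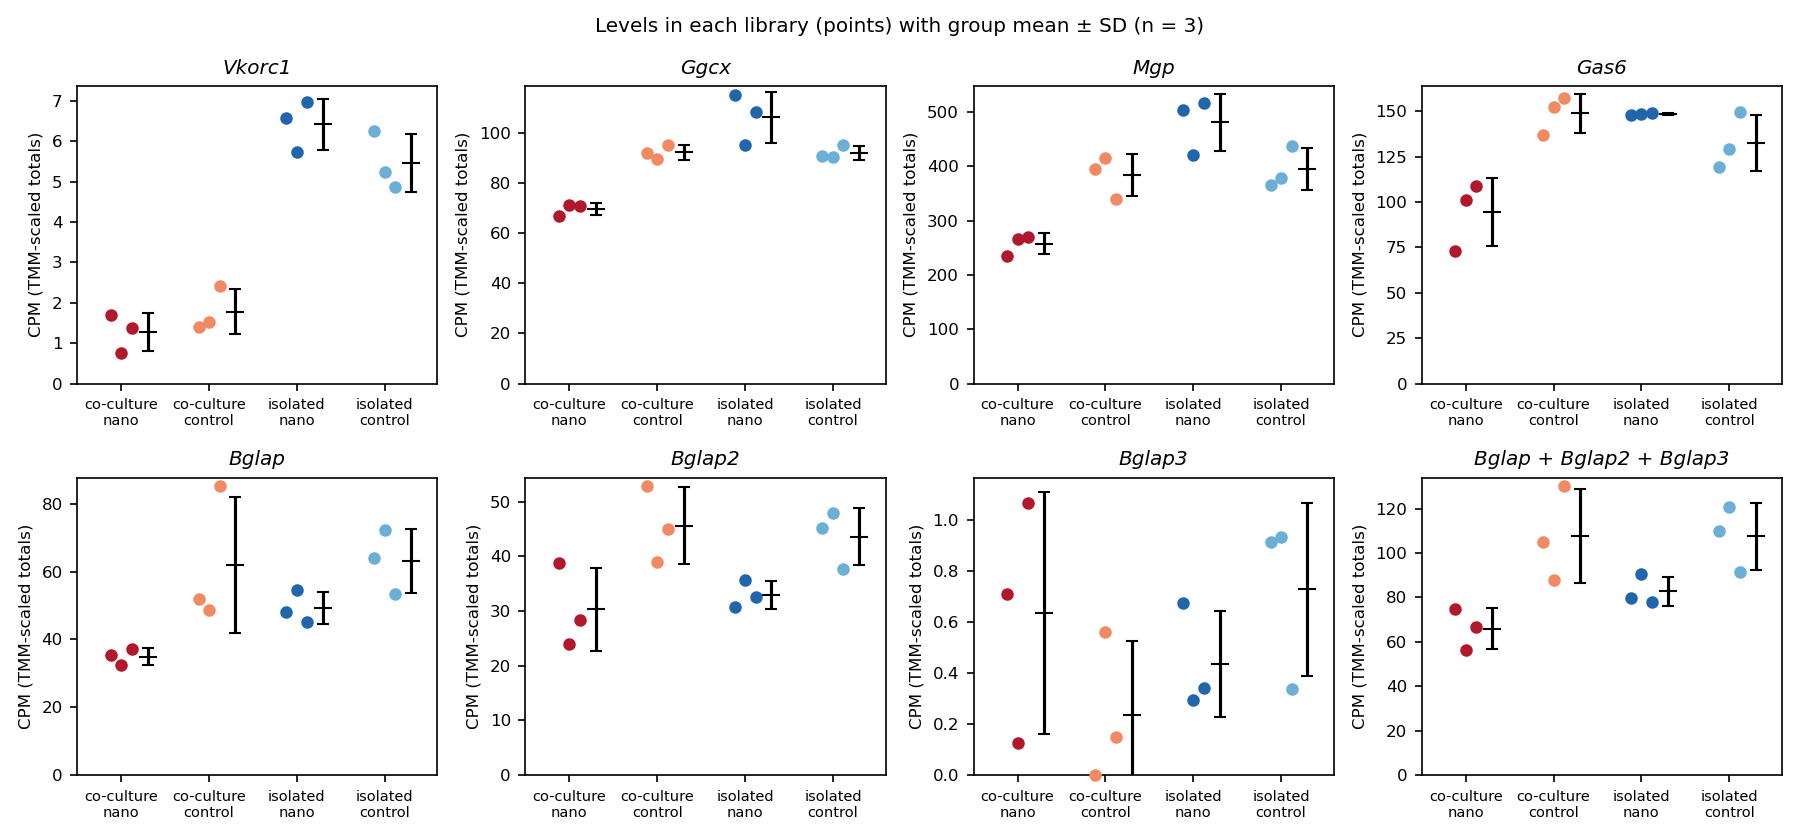
Levels of the 7 genes and of the osteocalcin sum in CPM on TMM-scaled totals (vertical axes from 0), with each library as a point and the group mean ± SD (n = 3) as a black bar beside the points. Vkorc1 is low in all 6 co-culture libraries, and Mgp and Ggcx are lowest in co-culture on nanotopography.

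Vkorc1 was the member that changed with co-culture on both surfaces, and Mgp and Ggcx fell with it on nanotopography with and without GC adjustment. Tests used edgeR's quasi-likelihood fit over all 12 libraries with Benjamini-Hochberg adjustment over 13340 genes, and a gene with an adjusted p below 0.05 is called. Of the 7 members 6 passed the low-count filter; Bglap3 did not. In co-culture against isolated cells on nanotopography, 5 of the 6 were called, all lower, where 59.1% of all tested genes were called and 30.4% were called lower. With GC adjustment 3 were lower and 1 higher, where 40.3% of all genes were called, 21.2% lower and 19.1% higher. On control titanium 1 of the 6 was called, Vkorc1, and it was lower, where 19.8% of all genes were called and 8.76% were lower (26.5% and 12.3% with GC adjustment, when Vkorc1 was again the one called). For nanotopography against control titanium in co-culture, 5 of the 6 were lower, where 42.0% of genes were called and 23.4% lower. GC adjustment left 1, Mgp, where 17.6% of genes were called and 10.3% lower. For the surface in isolated cells 0 of the 6 were called by edgeR, DESeq2 or limma-voom, 3 had an unadjusted edgeR p under 0.05, and 10.1% of all genes were called (0 of the 6 and 5.33% with GC adjustment). The co-culture effect differed between the surfaces for 3 of the 6, all lower on nanotopography, where 47.9% of genes were called and 25.4% lower, and for 1, Mgp, with GC adjustment, where 21.0% were called and 12.3% lower. Among the same 6, the libraries of 5 did not overlap for co-culture on nanotopography (64.4% of all tested genes), 1 for co-culture on control titanium (36.1%), 5 for the surface in co-culture (53.4%) and 1 for the surface in isolated cells (29.9%). No result about the set is read from these counts.

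**Figure D2:**
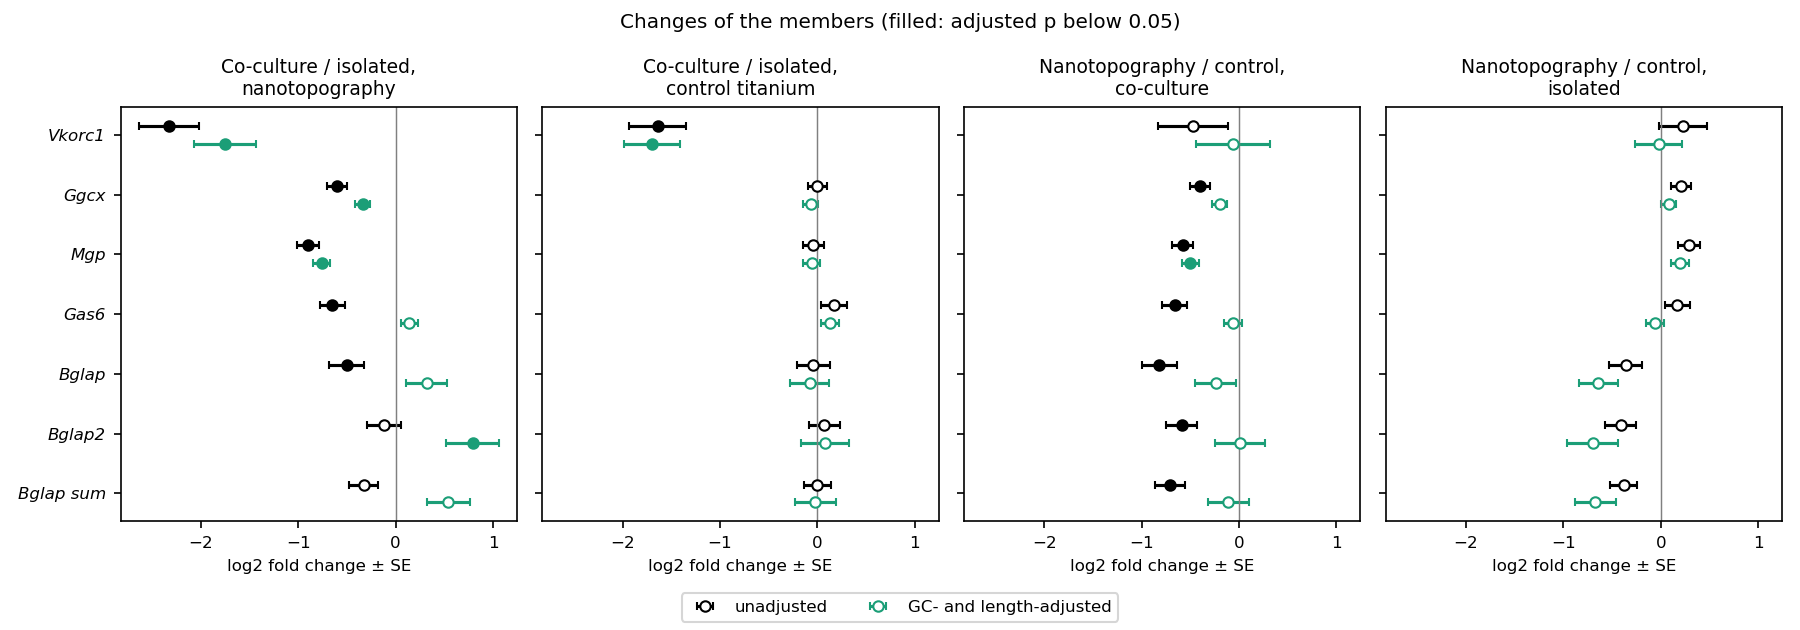
Log2 fold changes ± SE of the 6 tested genes and the osteocalcin sum in 4 comparisons (panels), unadjusted in black and GC- and length-adjusted in green, with filled points called at an adjusted p below 0.05. Vkorc1 lies near -1.7 in both co-culture panels after adjustment, and Mgp stays below 0 in co-culture on nanotopography with and without it.

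Vkorc1 transcripts were scarce and fell with co-culture on either surface. On nanotopography Vkorc1 had 12, 6 and 9 counts in the co-culture libraries (1.70, 0.763 and 1.37 CPM), against 39, 39 and 41 counts in isolated cells (6.57, 5.74 and 6.98 CPM). On control titanium it had 13, 11 and 16 counts in co-culture (1.41, 1.54 and 2.41 CPM), against 48, 45 and 29 in isolated cells (6.26, 5.25 and 4.88 CPM). All 6 co-culture libraries lay below all 6 isolated libraries. The log2 fold change was -2.33 ± 0.31 (SE; edgeR adjusted p = 6.62e-06) on nanotopography and -1.64 ± 0.29 (adjusted p = 0.000641) on control titanium, 0.199 and 0.321 of the isolated levels. GC-adjusted values were -1.75 ± 0.32 (adjusted p = 0.000145) and -1.70 ± 0.29 (adjusted p = 0.000133). The difference between the surfaces did not pass (interaction -0.69 ± 0.44, adjusted p = 0.199), nor did the surface change Vkorc1 past the threshold in co-culture (-0.47 ± 0.36, adjusted p = 0.307) or in isolated cells (0.23 ± 0.25, adjusted p = 0.56). These values describe the reads assigned to Vkorc1, whose 748-base transcript has 347 bases outside the Gm21974 exons.

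Ggcx, the carboxylase, was lower in co-culture on nanotopography by a smaller amount. On nanotopography the co-culture libraries had 67.0, 71.2 and 70.9 CPM, against 115, 95.1 and 108 CPM in isolated cells, with no overlap. On control titanium they had 92.0, 89.3 and 95.2 CPM, against 90.6, 90.1 and 95.2 CPM in isolated cells, and the groups overlapped almost wholly. Co-culture on nanotopography gave -0.60 ± 0.10 on the log2 scale (edgeR adjusted p = 5.55e-05), and -0.34 ± 0.08 with GC adjustment (adjusted p = 0.0014). On control titanium the change was 0.00 ± 0.10 (adjusted p = 0.985). Nanotopography against control titanium in co-culture gave -0.40 ± 0.10 (adjusted p = 0.00418), which lost its call with GC adjustment (-0.20 ± 0.08, adjusted p = 0.0803). The difference of the co-culture effect between surfaces was -0.61 ± 0.14 (adjusted p = 0.00196) and -0.28 ± 0.11 with GC adjustment (adjusted p = 0.0767). In isolated cells the surface gave 0.21 ± 0.10 (adjusted p = 0.167).

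Of 5 further genes of the vitamin K cycle and of precursor processing, Furin was the one that fell in co-culture on nanotopography under both fits. Furin, a protease that cleaves pro-osteocalcin, had 24.7, 29.1 and 34.4 CPM in co-culture on nanotopography, against 82.9, 77.7 and 79.8 CPM in isolated cells there. All 3 co-culture values lay far below the isolated ones, and also below the 57.4, 57.3 and 63.6 CPM of co-culture on control titanium. Its log2 fold change against isolated cells on nanotopography was -1.45 ± 0.12 (edgeR adjusted p = 6.39e-08; GC-adjusted -0.86 ± 0.10, adjusted p = 4.01e-07), and against co-culture on control titanium -1.02 ± 0.12 (adjusted p = 2.14e-05; GC-adjusted -0.53 ± 0.10, adjusted p = 0.000916). Vkorc1l1, a paralogue of Vkorc1 with the same reductase activity, was higher at 0.32 ± 0.12 (adjusted p = 0.0301) in co-culture on nanotopography, but -0.16 ± 0.09 (adjusted p = 0.196) with GC adjustment. The Vkorc1l1 call was also lost without co-culture nanotopography replicate 1 (0.21, adjusted p = 0.159), isolated nanotopography replicate 1 (0.22, adjusted p = 0.169) or isolated nanotopography replicate 3 (0.31, adjusted p = 0.0711). Calu, whose product calumenin binds and inhibits the carboxylase, was at 0.16 ± 0.10 (adjusted p = 0.186) there and at -0.20 ± 0.07 (adjusted p = 0.0285) with GC adjustment. The quinone reductases Nqo1 and Aifm2 were not called in that comparison, at -0.02 ± 0.14 (adjusted p = 0.906) and -0.07 ± 0.30 (adjusted p = 0.855). In all, 1 of the 5 was higher and 1 lower there, with a median of -0.02 against 0.00 for all tested genes, of which 59.1% were called. With GC adjustment 0 were higher and 2 lower, Furin and Calu, with a median of -0.16 against 0.00 for all tested genes (40.3% called). On control titanium the 5 changes in co-culture ran from -0.25 to 0.52, with the smallest edgeR adjusted p at 0.149. With GC adjustment they ran from -0.24 to 0.44, and Furin had the smallest edgeR adjusted p (-0.24 ± 0.09, adjusted p = 0.0534). For the surface in co-culture 1 was higher, Vkorc1l1 at 0.37 ± 0.12 (adjusted p = 0.0188; GC-adjusted 0.08 ± 0.09, adjusted p = 0.609), and 1 lower, Furin. In that comparison 42.0% of all tested genes were called (17.6% with GC adjustment).

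**Figure D3:**
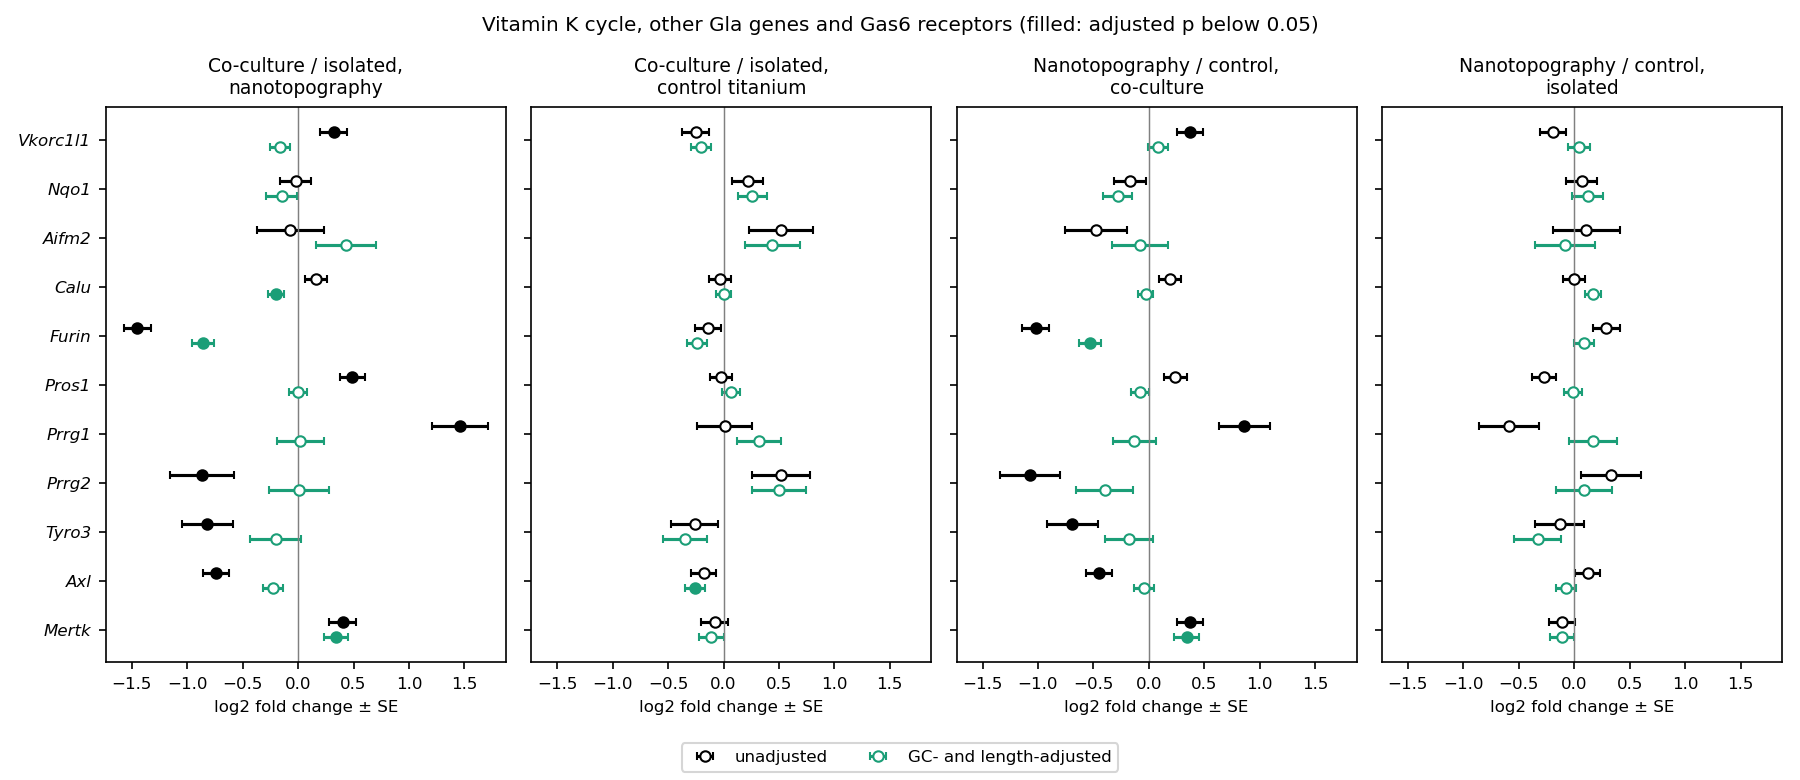
Log2 fold changes ± SE of tested genes of the vitamin K cycle and processing (Vkorc1l1 to Furin), other Gla protein genes (Pros1 to Prrg2) and Gas6 receptors (Tyro3 to Mertk), unadjusted in black and GC- and length-adjusted in green, filled where called. Furin stays below 0 in co-culture on nanotopography under both fits, whereas the green points of Pros1, Prrg1 and Prrg2 lie near 0 in co-culture against isolated cells there.

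Mgp was lower in co-culture on nanotopography than in either neighbouring group. It had 235, 266 and 270.2 CPM in co-culture on nanotopography, against 504, 421 and 518 CPM in isolated cells on that surface. Co-culture on control titanium had 395, 416 and 340.5 CPM, against 366, 379 and 438 CPM in isolated cells. The 3 libraries of co-culture on nanotopography were the lowest of the 12, and the groups on control titanium overlapped. Against isolated cells on nanotopography the log2 fold change was -0.90 ± 0.11 (edgeR adjusted p = 4.71e-06; GC-adjusted -0.76 ± 0.09, adjusted p = 8.23e-07). Against co-culture on control titanium it was -0.58 ± 0.11 (adjusted p = 0.00107; GC-adjusted -0.50 ± 0.09, adjusted p = 0.000839). On control titanium co-culture gave -0.04 ± 0.11 (adjusted p = 0.843), and the difference between the surfaces was called at -0.86 ± 0.16 (adjusted p = 0.000552; GC-adjusted -0.70 ± 0.13, adjusted p = 0.000788). In isolated cells nanotopography gave 0.29 ± 0.11 (adjusted p = 0.103), which passed without isolated nanotopography replicate 2 (0.36, edgeR adjusted p = 0.0334). Mgp is also expressed by chondrocytes, and 5 chondrocyte markers summed to 519 to 677 CPM (plain totals) in co-culture on nanotopography and 1070 to 1310 in co-culture on control titanium, against 1580 to 1630 and 1400 to 1520 in isolated cells on the same surfaces; Matn1 was at 0 and Acan at 1 to 3 counts per group. Col2a1 made up most of that sum. In co-culture it had 341 to 492 CPM on nanotopography and 874 to 1090 CPM on control titanium. In isolated cells it had 1290 to 1330 and 1160 to 1250 CPM on these surfaces. Sox9 had 177 to 185 and 180 to 219 CPM in co-culture, against 274 to 298 and 234 to 276 CPM in isolated cells. The part of these markers in the Mgp result was not tested. In RNA from whole cultures, fewer cells of a type and less RNA per cell cannot be told apart.

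Gas6 was lower in co-culture on nanotopography before GC adjustment and not after it. On nanotopography it had 73.1, 101 and 109 CPM in co-culture, against 148, 149 and 149 CPM in isolated cells. On control titanium it had 137, 153 and 157 CPM in co-culture, against 119, 129 and 149 CPM in isolated cells. The co-culture libraries on nanotopography were the 3 lowest of the 12. The unadjusted log2 fold change against isolated cells on nanotopography was -0.65 ± 0.13 (edgeR adjusted p = 0.000382) and the GC-adjusted one 0.14 ± 0.09 (adjusted p = 0.216); Gas6 has 56.6% GC. Against co-culture on control titanium the values were -0.66 ± 0.13 (adjusted p = 0.00112) and -0.06 ± 0.09 (adjusted p = 0.69). Gas6 was not called for co-culture on control titanium (0.17 ± 0.13, adjusted p = 0.386) or for the surface in isolated cells (0.17 ± 0.13, adjusted p = 0.406).

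Among the Gas6 receptors, Mertk rose and Axl and Tyro3 fell in co-culture on nanotopography, where 59.1% of all tested genes were called, and with GC adjustment the call for Mertk alone remained (40.3% of all genes). Mertk, which takes part in the clearance of dying cells, had 50.9, 42.1 and 43.7 CPM in co-culture on nanotopography, against 33.0, 36.9 and 33.5 CPM in isolated cells. The log2 fold change was 0.40 ± 0.12 (edgeR adjusted p = 0.00891; GC-adjusted 0.34 ± 0.11, adjusted p = 0.0158), and it missed the threshold without co-culture nanotopography replicate 1 (0.31, adjusted p = 0.0539). Axl was at -0.74 ± 0.12 (adjusted p = 4.29e-05; GC-adjusted -0.23 ± 0.09, adjusted p = 0.0519) and Tyro3 at -0.82 ± 0.23 (adjusted p = 0.0063; GC-adjusted -0.20 ± 0.23, adjusted p = 0.512). For co-culture on control titanium 0 of the 3 receptors were called unadjusted, where 19.8% of all tested genes were called. With GC adjustment Axl alone was called there, lower at -0.26 ± 0.09 (edgeR adjusted p = 0.0359), where 26.5% of all genes were called. Mertk is also a macrophage gene, and the 17 macrophage and osteoclast markers summed to 183 to 256 CPM (of plain library totals) in co-culture on nanotopography, against 182 to 206 CPM over the libraries of the other 3 groups, so the groups overlapped. Ctsk and Mmp9 made up most of that sum in every group, and Mmp9 was at 10.9 to 19.7 CPM in co-culture on nanotopography, against 18.9 to 26.5 CPM in isolated cells there. Without Ctsk and Mmp9, a choice made after the values were seen, the other 15 summed to 104, 270 and 277 counts in the libraries of co-culture on nanotopography and 39, 54 and 73 in co-culture on control titanium, against 36, 31 and 29 in isolated cells on nanotopography and 44, 62 and 22 on control titanium. Their part in the receptor values was not tested. Of the proposed osteocalcin receptors, Gprc6a and Gpr37 had 0 counts in all libraries and Gpr158 had 1.

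Among 12 genes of other Gla proteins, mostly liver-made clotting factors and transmembrane Gla proteins, 3 were abundant enough to test, and all 3 were called in co-culture on nanotopography, as were 59.1% of all tested genes. Pros1 (protein S, also a ligand of Tyro3 and Mertk) and the transmembrane Prrg1 were higher in co-culture on nanotopography than in isolated cells, at 0.49 ± 0.11 (edgeR adjusted p = 0.000675) and 1.46 ± 0.25 (adjusted p = 9.77e-05), and Prrg2 was lower at -0.87 ± 0.29 (adjusted p = 0.014). GC-adjusted, the 3 were at 0.00 ± 0.08, 0.02 ± 0.21 and 0.01 ± 0.27, with adjusted p-values of at least 0.952; their GC contents are 43.4%, 33.4% and 57.5%. The Prrg2 call was also lost without co-culture nanotopography replicate 1 or 3 (-0.79 and -0.73, adjusted p = 0.0513 and 0.063). The other 9 had 0 to 37 counts over the 12 libraries. The one with 37, Prrg4, encodes a transmembrane Gla protein and was singled out after its values were seen. It had 3, 11 and 11 counts in co-culture on nanotopography, against 0, 1 and 0 in isolated cells, and 5, 2 and 4 in co-culture on control titanium, against 0 in each isolated library there. Relative to total counts the ratio on nanotopography was 22.1 (95% counting interval 3.62 to 908), and on control titanium the level was at least 3.48-fold higher, with 3 counts over the isolated group as the floor. Such intervals and floors cover counting error only. The counts of the 15 macrophage and osteoclast markers given above were also higher in co-culture on nanotopography, and their part in the Prrg4 counts was not tested.

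Osteocalcin transcripts were not called for co-culture on control titanium, and on nanotopography their direction depended on the GC adjustment. Bglap had 35.3, 32.3 and 37.1 CPM in co-culture on nanotopography, against 48.2, 54.4 and 45.3 CPM in isolated cells. On control titanium it had 52.0, 48.6 and 85.1 CPM in co-culture, against 64.1, 72.2 and 53.3 CPM in isolated cells. The co-culture libraries on nanotopography were the 3 lowest of the 12, and co-culture replicate 3 on control titanium was the highest. The Bglap log2 fold change for co-culture on nanotopography was -0.50 ± 0.18 (edgeR adjusted p = 0.0231), and 0.32 ± 0.21 (adjusted p = 0.262) with GC adjustment. It missed the threshold without replicate 2 of co-culture on nanotopography (-0.43, adjusted p = 0.0781) or of isolated cells there (-0.40, adjusted p = 0.0819). On control titanium co-culture gave -0.04 ± 0.17 (adjusted p = 0.902), with -0.31 to 0.12 when single libraries were left out. The surface gave Bglap -0.82 ± 0.18 in co-culture (adjusted p = 0.0019; GC-adjusted -0.24 ± 0.21, adjusted p = 0.467) and -0.36 ± 0.17 in isolated cells (adjusted p = 0.174; GC-adjusted -0.64 ± 0.20, adjusted p = 0.0931).

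Bglap2 had 38.7, 23.9 and 28.3 CPM in co-culture on nanotopography, against 30.7, 35.6 and 32.5 CPM in isolated cells, and the groups overlapped. On control titanium it had 52.9, 38.9 and 45.1 CPM in co-culture, against 45.2, 47.8 and 37.7 CPM in isolated cells. The isolated libraries on nanotopography lay below those on control titanium with no overlap, and the change of -0.41 ± 0.16 did not pass (edgeR adjusted p = 0.108). In co-culture the surface gave -0.59 ± 0.16 (adjusted p = 0.00838), and 0.01 ± 0.26 with GC adjustment (adjusted p = 0.983). For co-culture on nanotopography the Bglap2 change was -0.12 ± 0.17 (adjusted p = 0.541), and 0.79 ± 0.27 (adjusted p = 0.0392) with GC adjustment. Bglap and Bglap2 have 55.7% and 56.3% GC, and both moved less than the median of -0.90 of genes over 55% GC in that comparison.

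The osteocalcin sum does not depend on how reads were split between the copies, although reads dropped for matching several would be missing from it. It had 74.8, 56.4 and 66.5 CPM in co-culture on nanotopography, against 79.5, 90.3 and 78.1 CPM in isolated cells. On control titanium it had 105, 88.1 and 130.3 CPM in co-culture, against 110.1, 121 and 91.4 CPM in isolated cells. The groups overlapped on control titanium and not on nanotopography. Co-culture gave -0.33 ± 0.15 on nanotopography (edgeR adjusted p = 0.0614; GC-adjusted 0.54 ± 0.22, adjusted p = 0.0719) and 0.00 ± 0.14 on control titanium (adjusted p = 0.999). Nanotopography against control titanium gave -0.71 ± 0.15 in co-culture (adjusted p = 0.00137; GC-adjusted -0.11 ± 0.21, adjusted p = 0.771) and -0.38 ± 0.14 in isolated cells (adjusted p = 0.0922; GC-adjusted -0.67 ± 0.21, adjusted p = 0.0996). The surface effect in isolated cells passed without isolated control replicate 3 (-0.49, adjusted p = 0.0343) or isolated nanotopography replicate 2 (-0.46, adjusted p = 0.0435). The difference of the co-culture effect between surfaces was -0.33 ± 0.20 (adjusted p = 0.191). The 9 osteoblast markers summed to 44000 to 55800 CPM (plain totals) in co-culture on nanotopography and 73400 to 85300 in co-culture on control titanium, against 84500 to 89700 and 82700 to 96200 in isolated cells on the same surfaces. Col1a1 and Col1a2 made up most of that sum, at 19100 to 27000 and 15200 to 19200 CPM in co-culture on nanotopography, against 43500 to 45100 and 31500 to 32300 CPM in isolated cells there. Of the other markers, Ifitm5 was lower at 4.7 to 8.29 CPM against 39 to 52.6 CPM. Sp7 was lower at 268 to 316 CPM against 403 to 448 CPM. Alpl was lower at 70.9 to 98.3 CPM against 99.9 to 136 CPM. Ibsp at 8140 to 9080 CPM against 8550 to 12300 CPM overlapped. Dmp1 at 7.26 to 13.3 CPM against 10.4 to 16.1 CPM also overlapped, as did Runx2 at 307 to 374 CPM against 298 to 356 CPM. Phex was higher at 9.94 to 10.3 CPM against 4.39 to 8.87 CPM. Their part in the osteocalcin values was not tested.

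Bglap made up a steady share of the Bglap and Bglap2 reads in isolated cells and a more variable one in co-culture. The share was 47.7%, 57.5% and 56.7% in co-culture on nanotopography and 49.6%, 55.6% and 65.4% in co-culture on control titanium, against 61.1%, 60.5% and 58.2% in isolated cells on nanotopography and 58.7%, 60.2% and 58.6% on control titanium. Within co-culture on control titanium the 95% Wilson intervals of replicate 1 (46.4% to 52.7%) and replicate 3 (62.2% to 68.5%) did not meet, while those of all 6 isolated libraries overlapped. Bglap3 reads were near the limit of counting, with 13 counts in co-culture on nanotopography and 5 in co-culture on control titanium, against 8 and 17 in isolated cells on the same surfaces.

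**Figure D4:**
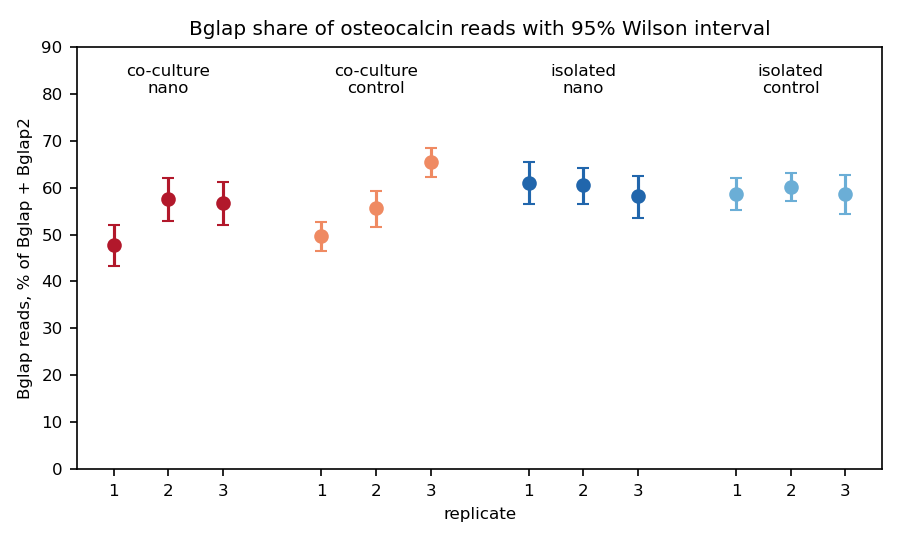
Share of Bglap in the summed Bglap and Bglap2 reads (vertical axis, percent from 0) in each library, with 95% Wilson intervals that cover counting error only. The 6 isolated libraries lie between 58.2% and 61.1%, and the 6 co-culture libraries between 47.7% and 65.4%.

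The regulators of osteocalcin transcription moved in both directions. The proximal Bglap promoter is shown because several of them are known to bind it; the sequence is the 250 bases before the RefSeq start site (chr3:88384467-88384716, minus strand, GRCm38.p6), with capitals at ACCACA, the core recognised by RUNX factors, and at TTACATCA, an element bound by Atf4.

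Bglap promoter: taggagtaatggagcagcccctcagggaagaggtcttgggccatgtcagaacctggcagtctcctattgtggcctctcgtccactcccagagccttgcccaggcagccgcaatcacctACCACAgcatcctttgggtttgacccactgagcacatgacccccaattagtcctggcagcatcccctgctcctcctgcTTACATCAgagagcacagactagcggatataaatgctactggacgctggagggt

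The matches start at -132 and -54 from the start site. Searched on both strands, where the 2 motifs do not overlap each other, ACCACA occurred in 16.8% and TTACATCA in 1.1% of 32851 RefSeq promoter windows of 300 bases (250 before and 50 after the start). RefSeq windows were matched for 5 of the 7 members, and neither motif was found in those of Bglap3, Ggcx, Vkorc1 and Gas6. A match describes the letters only.

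All 11 regulators were tested, and in co-culture against isolated cells 2 were higher and 5 lower on nanotopography (4 and 3 with GC adjustment) and 2 were higher and 2 lower on control titanium (3 and 4 with GC adjustment). Of all tested genes 59.1% were called on nanotopography (40.3% with GC adjustment) and 19.8% on control titanium (26.5%). The regulators' median log2 fold change was -0.49 on nanotopography and -0.16 on control titanium, against 0.00 and -0.02 for all tested genes. With GC adjustment the medians were -0.02 and -0.21, against 0.00 and -0.01. Atf4 and Bhlhe40 rose and Vdr fell on both surfaces under both fits. Bhlhe40, a basic helix-loop-helix factor, had 490.4, 496 and 492 CPM in co-culture on nanotopography, against 258, 243 and 270.2 CPM in isolated cells, and 642, 634 and 558 CPM in co-culture on control titanium, against 218, 218 and 255 CPM in isolated cells. No co-culture library overlapped an isolated one, and the changes were 0.94 ± 0.10 (edgeR adjusted p = 6.54e-07) and 1.41 ± 0.10 (adjusted p = 4.66e-08). Atf4, needed for late osteoblast differentiation, had 282, 264 and 322 CPM in co-culture on nanotopography, against 143, 154 and 161 CPM in isolated cells. The Atf4 changes were 0.92 ± 0.11 there (adjusted p = 3.94e-06; GC-adjusted 1.63 ± 0.15, adjusted p = 9.64e-07) and 0.62 ± 0.11 on control titanium (adjusted p = 0.000908). Vdr, the vitamin D receptor, had 35.2, 49.6 and 37.6 CPM in co-culture on nanotopography, against 86.3, 70.9 and 76.6 CPM in isolated cells. The Vdr changes were -0.93 ± 0.13 (adjusted p = 1.64e-05) and -0.67 ± 0.13 on control titanium (adjusted p = 0.00156).

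Dlx5, a homeodomain activator of osteoblast genes, fell in co-culture on nanotopography under both fits, with 24.6, 33.0 and 34.5 CPM against 84.3, 82.7 and 88.6 CPM in isolated cells (-1.47 ± 0.14, edgeR adjusted p = 2.29e-07; GC-adjusted -0.87 ± 0.10, adjusted p = 9.43e-07). Sp7 (osterix) and Rxra, the partner of Vdr, were lower there unadjusted (-0.61 ± 0.10 and -0.86 ± 0.14) and at -0.02 ± 0.08 and -0.07 ± 0.09 with GC adjustment. Dlx3 turned its sign, at -0.49 ± 0.13 (adjusted p = 0.00326) unadjusted and 0.29 ± 0.10 (adjusted p = 0.0206) adjusted. Cbfb, the partner of Runx2, was at 0.22 ± 0.13 (adjusted p = 0.139) and at -0.34 ± 0.10 with adjustment (adjusted p = 0.00681), and Msx2, a homeodomain repressor, was not called (-0.54 ± 0.31, adjusted p = 0.134). On control titanium, GC adjustment gave Dlx5 -0.33 ± 0.10 (edgeR adjusted p = 0.0186) and Sp7 -0.22 ± 0.08 (adjusted p = 0.0483), both called lower. Rxra was called higher there, at 0.25 ± 0.08 (adjusted p = 0.0328). Unadjusted, Dlx5, Sp7 and Rxra were not called there, at -0.27 ± 0.13, -0.15 ± 0.10 and 0.30 ± 0.14 (adjusted p of at least 0.134). Runx2, the master regulator of the lineage, was at 0.02 ± 0.12 on nanotopography (adjusted p = 0.894) and lower at -0.37 ± 0.12 on control titanium (adjusted p = 0.036). With GC adjustment it was at 0.07 ± 0.11 (adjusted p = 0.654) and -0.48 ± 0.11 (adjusted p = 0.00329). For the surface in co-culture Runx2 was at 0.29 ± 0.12 (adjusted p = 0.0602), and 0.37 ± 0.11 with GC adjustment (adjusted p = 0.0257). The unadjusted Runx2 call on control titanium was lost without any one of several libraries, with -0.37 to -0.28 and edgeR adjusted p-values of 0.0501 to 0.186. These were co-culture control replicates 1 and 2, co-culture nanotopography replicate 3, isolated control replicates 1 and 2 and isolated nanotopography replicate 3. For the surface, 1 regulator was higher and 4 were lower in co-culture (3 and 2 with GC adjustment), where 42.0% of all genes were called (17.6% with GC adjustment); among those lower was Dlx5 at -0.86 ± 0.14 (adjusted p = 0.000243; GC-adjusted -0.41 ± 0.11, adjusted p = 0.0113). In isolated cells Atf4 alone was called, lower at -0.48 ± 0.11 (adjusted p = 0.0226), and it was lost without isolated control replicate 1 or 2 or isolated nanotopography replicate 1 or 3 (adjusted p of 0.0836 to 0.119). With GC adjustment Atf4 was at -0.70 ± 0.14 there (adjusted p = 0.0161). For the surface in isolated cells 10.1% of all tested genes were called (5.33% with GC adjustment). Cebpb, with 67.2% GC, had the largest shift between the fits among the 11 regulators on nanotopography, at -0.14 ± 0.18 unadjusted (adjusted p = 0.53) and 1.91 ± 0.18 adjusted (adjusted p = 1.85e-07).

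**Figure D5:**
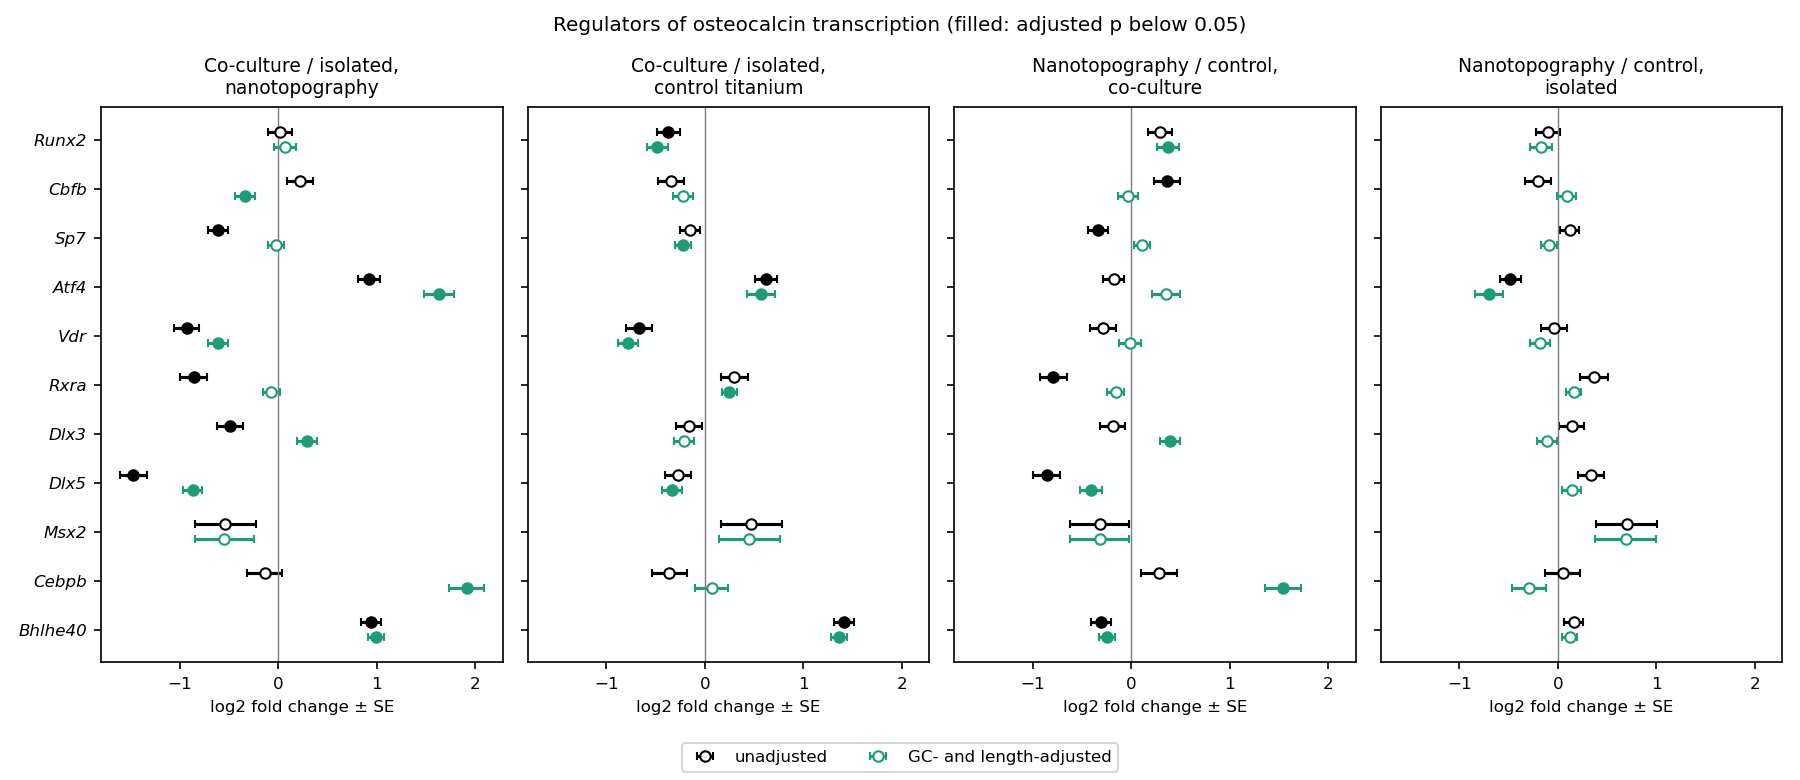
Log2 fold changes ± SE of 11 regulators of osteocalcin transcription in 4 comparisons, unadjusted in black and GC- and length-adjusted in green, filled where called. Bhlhe40 and Atf4 lie above 0 and Vdr below 0 in both co-culture panels, and Cebpb shifts to 1.91 with adjustment on nanotopography.

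The genes most like each member were the 3 protein-coding genes, of 8028 with a mean of at least 10 CPM, whose centred log2 CPM differed least over the 12 libraries (root mean square difference). For Vkorc1 they were Gpr153 at 0.269, Smpd3 at 0.301 and Hapln4 at 0.306, beside a SD of 1.01 of Vkorc1 itself. For Mgp they were Nsmf at 0.073, Calm3 at 0.083 and Gars at 0.089 (SD of Mgp 0.36), and for Ggcx Cdk16, Tle3 and Mbtps1 at 0.066 to 0.069 (SD 0.24). Gas6 was most like Arhgef17, Stk25 and Alas1 at 0.09 to 0.094 (SD 0.33). Bglap was most like Cox7c, Col15a1 and Mef2d at 0.204 to 0.226 (SD 0.41), and Bglap2 most like Adam19, Magi1 and Inpp4a at 0.188 to 0.212 (SD 0.33). The difference between Bglap and Bglap2 was 0.272. It cannot be set against the values above, since those genes were picked as the closest of 8028. These libraries share the GC-linked axis, so the values describe likeness in these libraries only.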

How the data were processed

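The 12 deposited files hold raw read counts per gene from SMARTer libraries. The submitters' processing notes name STAR 2.4, FastQC 0.63, HTSeq, cutadapt and DESeq2, and the build mm10; annotation release and strand setting are not given in the sources used here, so antisense reads cannot be set apart. Of the 12 files 11 end within a line or without a line end; the 52654 genes complete in all were used (at least 99.924% of counts) and 1621 others left out. Members and lists were chosen with earlier results of these data known. All members, and tested genes of 4 lists, could be named, apart from 2 genes of these lists that are not reported here.

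The deposited counts went into edgeR 4.0.16 under R 4.3.3 (filterByExpr, TMM, robust quasi-likelihood, 4 group means; common dispersion 0.0151); log2 CPM used a prior count of 2. SE is the absolute log2 fold change over the square root of F. GC adjustment used loess (span 0.3) offsets per library. Osteocalcin genes were also fitted as 1 summed row. Alternatives were limma-voom (limma 3.58.1), DESeq2 1.42.0, RLE scaling, other filters, no mitochondrial or ribosomal RNA genes, only the groups compared, a fit blocked on replicate number, and single libraries left out. The fits were tested on simulated data with known changes and a linear GC trend in co-culture on nanotopography alone. The simulation held no length trend and no GC shift of isolated libraries, so it cannot show how well the adjustment works on these data. No libraries were alike enough to be 1 library deposited again (highest correlation of log2 CPM 0.9892).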

Additional observations from a re-analysis of the deposited data

Results flagged for a closer look

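The co-culture effect differed between the surfaces (interaction in edgeR's fit, adjusted p below 0.05, nanotopography minus control titanium, log2 scale) for 3 members and 12 genes of the lists. It was lower on nanotopography for Mgp (-0.86), Gas6 (-0.82) and Ggcx (-0.61), at a background of 47.9% of genes called (21.0% with GC adjustment). Among the vitamin K genes it was lower for Furin (-1.30) and higher for Vkorc1l1 (0.57). Among other Gla protein genes it was higher for Pros1 (0.51) and Prrg1 (1.45) and lower for Prrg2 (-1.39). Among the receptors it was lower for Axl (-0.56) and higher for Mertk (0.48). Among the regulators it was higher for Cbfb (0.56) and lower for Sp7 (-0.46), Rxra (-1.16), Dlx5 (-1.21) and Bhlhe40 (-0.47). With GC adjustment the calls for Mgp (-0.70), Furin (-0.61), Mertk (0.45), Dlx5 (-0.54) and Bhlhe40 (-0.37) remained. Called with GC adjustment alone were the regulators Runx2 (0.55), Atf4 (1.05), Dlx3 (0.50) and Cebpb (1.84). The unadjusted Mertk call was lost when any one of co-culture nanotopography replicate 1, co-culture control replicate 2, isolated nanotopography replicates 1 and 3 or isolated control replicates 1 and 2 was left out (0.39 to 0.47, edgeR adjusted p of 0.0554 to 0.0861). Among 21 alternative fits, which include those without 1 library, the Mertk call held in 13 and was lost in 8. The Cbfb call was lost without co-culture nanotopography replicate 1 (0.45, adjusted p = 0.0501) or isolated nanotopography replicate 1 (0.46, adjusted p = 0.0571).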

How the results depend on the processing

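Each of 88 gene results was refitted under up to 10 settings and in 12 fits without 1 library. The calls of Vkorc1 (-2.60 to -1.74 on nanotopography, -1.87 to -1.46 on control titanium), of Mgp (-0.97 to -0.76 against isolated cells on nanotopography) and of Ggcx in the same comparison (-0.66 to -0.34) held in all that were run. limma-voom, the stricter filter and the replicate block changed none of the 88, DESeq2 1, and GC adjustment 52, of which 25 turned their sign. In each pair below, of results that turned their sign, the GC-adjusted value comes first and the value with GC adjustment and replicate block second; the cause was not tested. For co-culture on nanotopography these were the osteocalcin sum 0.54 and 0.53, Bglap 0.32 and 0.32, Bglap2 0.79 and 0.76, Gas6 0.14 and 0.14, Vkorc1l1 -0.16 and -0.15, Calu -0.20 and -0.20, Cbfb -0.34 and -0.34, Dlx3 0.29 and 0.29 and Cebpb 1.91 and 1.91, with Prrg2 at 0.01 under the first alone. For the surface in co-culture they were Bglap2 0.01 and 0.01, Prrg1 -0.13 and -0.14, Cbfb -0.03 and -0.02, Sp7 0.11 and 0.11 and Dlx3 0.39 and 0.39. In isolated cells they were Gas6 -0.06 and -0.06 and Vkorc1 -0.02 and -0.02. For the difference between surfaces they were the osteocalcin sum 0.56 and 0.55, Bglap 0.40 and 0.40, Bglap2 0.71 and 0.70, Pros1 -0.07 and -0.07, Prrg1 -0.30 and -0.28, Axl 0.03 and 0.03, Cbfb -0.12 and -0.11, Sp7 0.20 and 0.20 and Dlx3 0.50 and 0.50, with Gas6 at 0.01 under the first alone. The osteocalcin sum for the surface in co-culture kept its sign and lost its call, at -0.11 and -0.11. Members called fell to 1 and 1 for the surface in co-culture and to 1 and 1 for the difference between surfaces.

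Without a filter on low counts 1 member was called for the surface in isolated cells, and the osteocalcin sum passed there (-0.40, adjusted p = 0.0234) and for co-culture on nanotopography (-0.34, adjusted p = 0.0266); with only the groups compared the sum was -0.33 for co-culture on nanotopography (adjusted p = 0.0468). Leaving out single libraries gave 0 to 1 members called for the surface in isolated cells, with the sum at -0.49 to -0.28 there and at -0.44 to -0.21 for co-culture on nanotopography (edgeR adjusted p = 0.0289 without co-culture nanotopography replicate 1). It turned the sign of uncalled values of Bglap (-0.31 to 0.12), Bglap2 (-0.04 to 0.18) and Mgp (-0.09 to 0.06) for co-culture on control titanium and of Bglap2 on nanotopography (-0.34 to 0.04). Counts over all genes ranged most for the surface in isolated cells, with 1347 called, 2 to 2912 without single libraries, 2104 without the filter, 711 with GC adjustment and 505 with GC adjustment and block. Co-culture on control titanium gave 2637 and 1432 to 2979 without single libraries, co-culture on nanotopography 7890 and 5184 with GC adjustment and block, the surface in co-culture 5602 and 2344 with GC adjustment, 2102 with the block added and 3271 without co-culture nanotopography replicate 1, and the difference between surfaces 6384 and 2796 with GC adjustment and 2517 with the block added.

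Whether replicate numbers pair the libraries was not settled. Same-numbered deviations correlated at -0.39 to 0.30 over the comparisons of 2 groups. For the surface in co-culture they correlated at 0.30, 0.13 and 0.08, against -0.24 to 0.11 for unlike numbers. With the replicate block 1, 5, 5, 0 and 3 members were called in the 5 comparisons, as without it. The osteocalcin sum was then -0.33 (edgeR adjusted p = 0.0731) for co-culture on nanotopography and -0.71 (adjusted p = 0.00223) for the surface in co-culture. With 308 reads over 12 libraries, counting limits Vkorc1 most among the tested members.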
